A study of Mus musculus with 9 samples.

Results

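The matrix metalloproteinases (MMPs), the ADAM and ADAMTS proteases and their tissue inhibitors (TIMPs) were examined in HT22 cells after oxygen-glucose deprivation. The family was taken by name, as every protein-coding gene whose symbol begins with Mmp, Adam or Adamts and a number, or with Adamtsl, together with the 4 Timp genes. This gave 83 of the 54532 genes in the deposited values, or 83 of 22046 protein-coding genes, made up of 22 MMPs, 33 ADAMs, 19 ADAMTS proteases, 5 ADAMTS-like proteins and 4 TIMPs.

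These enzymes hold a zinc ion in the active site. MMPs and ADAMTS proteases cut the extracellular matrix, and ADAMs mainly cut membrane proteins and release their outer domains. TIMPs block the active site of most MMPs and of some ADAM and ADAMTS proteases. In the ischemic brain, MMP-9 and MMP-2 are known for degrading the basal lamina around vessels, and TIMP-1 is an inducible inhibitor made by many cell types.

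HT22 is an immortalized line of wild-type murine hippocampal cells. The 9 RNA-seq libraries were 3 of control cells without treatment, 3 of OGP cells and 3 of OGE cells. OGP cells had 2 h of oxygen-glucose deprivation (OGD) and then 24 h of reoxygenation with PBS, and OGE cells had the same with hiPS-MSC-EVs, which are extracellular vesicles secreted by mesenchymal stem cells that were made from human-induced pluripotent stem cells. By the labels OGE differs from OGP in the vesicles, and both differ from control in OGD and reoxygenation. The medium may also have differed between arms, and its part cannot be told apart from that of the treatments. The vesicle dose given to the sequenced cells, the serum in their medium and whether libraries came from separate cultures were not clear from the sources, so a p-value here speaks of the spread among these libraries, which may be technical.

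The libraries held 15026700 to 19476806 reads in genes, and Pearson's r between libraries of a group was 0.969 to 0.988. Control replicate 1 and OGE replicate 3 stood apart from their groups on the third principal component. Of 10 neuron markers 2 were tested, Tubb3 and Map2, and the others were near 0, Rbfox3 among them at 0.00434 FPKM (fragments counted relative to gene length and library size). Astrocyte, microglia, oligodendrocyte and endothelial lists had 0 of 5 markers tested each, with Aqp4 and Itgam at 0 reads in all libraries. The microglia list summed to 0.154 to 0.312 FPKM in control, 0.717 to 0.910 in OGP and 0.190 to 0.640 in OGE libraries, most of it Aif1. Of 7 mesenchymal markers 4 were tested, Col1a1, Col1a2, Pdgfra and Pdgfrb, while Dcn, Lum and Thy1 were near 0. The summed level of the mesenchymal list was 664.5 to 977.1 FPKM in control, 383.9 to 453.2 in OGP and 375.7 to 439 in OGE libraries, nearly all of it Col1a1. Pdgfrb was at a mean of 7.24, 6.995 and 7.31 FPKM in these groups, Pdgfra at 9.89, 5.46 and 8.68, and Dcn at 0.00614, 0.200 and 0.124.

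A total of 32 members reached an average of 0.5 FPKM across the 9 libraries and were tested. The other 51 were too low, 20 of them with no read in any library. FPKM is per length and allows levels of different genes to be compared. Timp1 and Timp2 had the highest mean levels, followed by Adam9, Adamtsl4, Adam10, Mmp14, Adam15, Adamtsl3, Mmp11 and Adam17. The summed FPKM of the 4 TIMPs was 506.1 ± 38.2 in control, 278 ± 6.51 in OGP and 397.8 ± 18.1 in OGE (SD, n = 3 libraries). That of the 22 MMPs was 74.5 ± 3.58, 50.4 ± 1.80 and 60.7 ± 1.66, and that of the 33 ADAMs 123 ± 3.75, 98.4 ± 5.48 and 118 ± 7.26. For the TIMPs and the MMPs, the libraries of the 3 groups did not overlap, with control above OGE and OGE above OGP. The summed FPKM of the ADAMTS proteases was instead lowest in OGE, at 45.9 ± 0.462 in control, 37.2 ± 2.29 in OGP and 34.0 ± 0.299 in OGE libraries. That order rests on Adamts1, at a mean of 13.1 FPKM in control, 10.3 in OGP and 3.42 in OGE. From OGP to OGE, Adamts1 alone fell by more than the ADAMTS sum, so the other ADAMTS proteases together did not fall. Dividing the TIMP sum by the MMP sum gave 6.59 to 7.07 in control, 5.41 to 5.62 in OGP and 6.13 to 6.80 in OGE libraries. The TIMP sum is mostly Timp1 and Timp2, and in bulk RNA fewer cells of a type and less RNA per cell cannot be told apart.

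**Figure D1:**
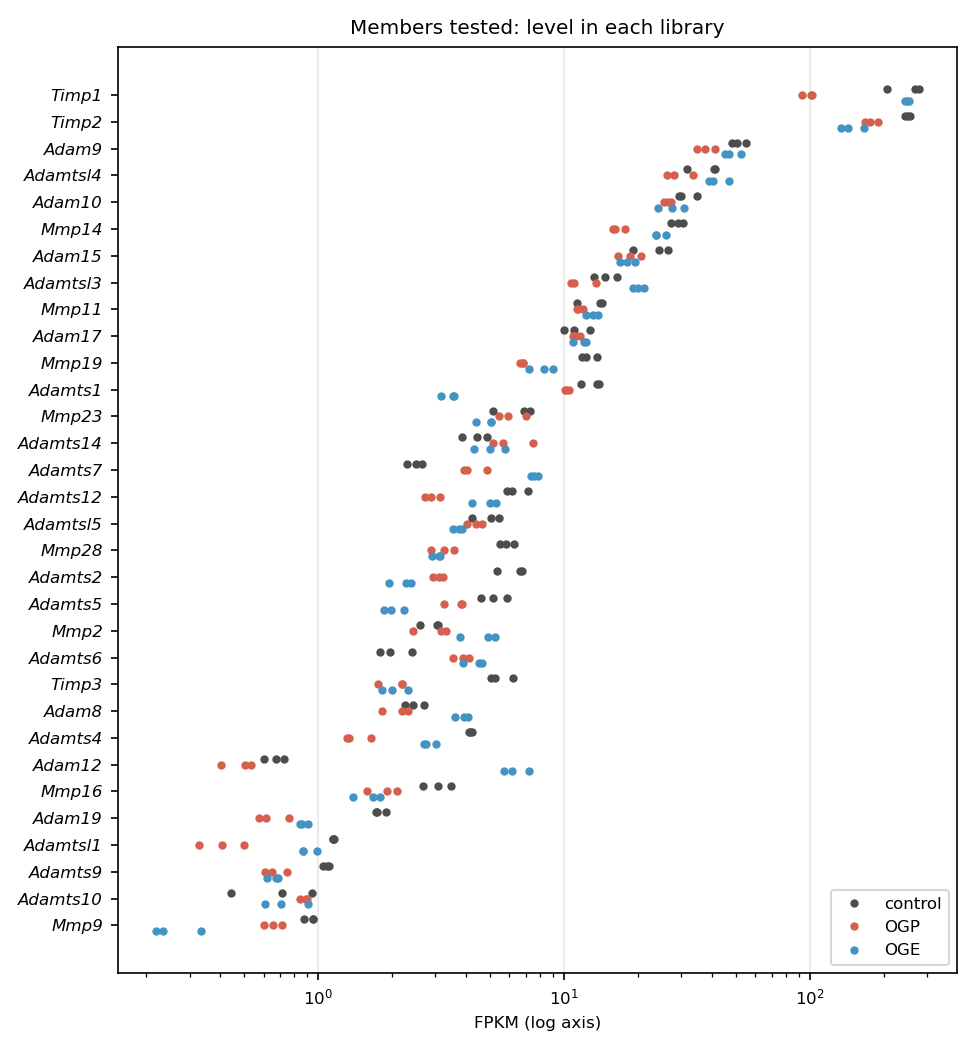
Level of the 32 members tested in each of the 9 libraries, in FPKM on a log axis, ordered by mean level, with 1 point per library and 1 color per group. Timp1 and Timp2 lie above all other members in every library, and Adam12 is the member whose OGE libraries lie farthest from both other groups.

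**Figure D2:**
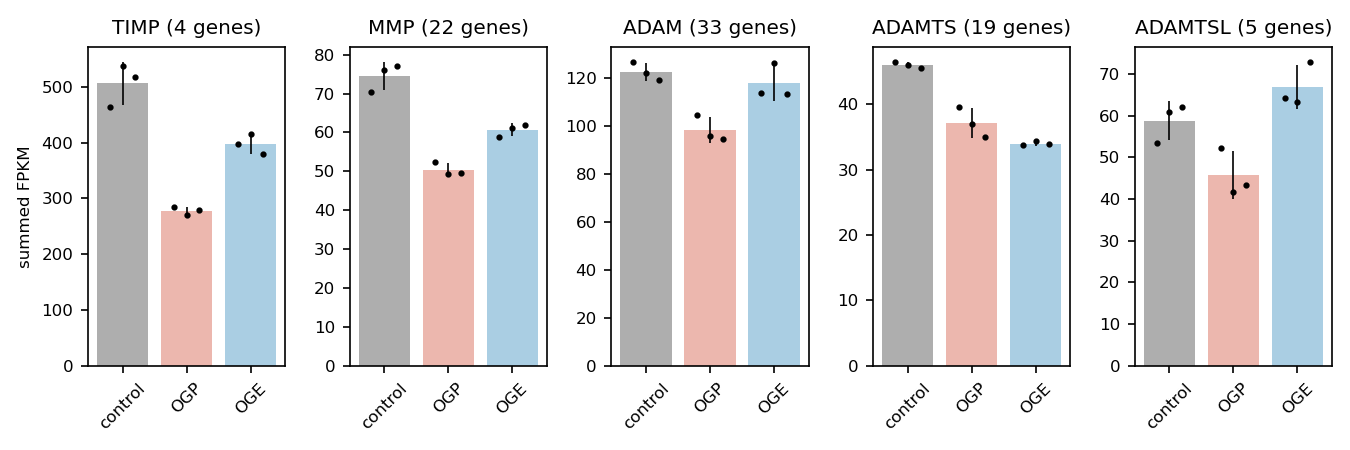
Summed FPKM of each family by group, with bars for the mean, lines for the SD and points for the 3 libraries, each panel on its own axis from 0. The TIMP, MMP and ADAM sums are lowest in OGP, whereas the ADAMTS sum is lowest in OGE. From OGP to OGE, Adamts1 alone fell by more than the ADAMTS sum.

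OGP against control asks what changed after OGD and reoxygenation. On balance more members fell than rose: of the 32 tested, 11 fell and 2 rose by at least 1.5-fold at an adjusted p of at most 0.05 (limma, over all 13245 genes tested). Over all genes tested, 5.74% fell and 6.38% rose, 12.1% in either direction. The median log2 fold change was -0.35 over the 32 members and 0.01 over all genes tested. The libraries of the groups did not overlap for 22 of the 32 members (68.75%), against 42.9% of all genes. In OGE against OGP, which asks what differed with the vesicles, 8 members rose and 3 fell, against 3.39% and 4.73% of all genes (8.12% in either direction). Here the median log2 fold change was 0.11 over the members and 0.00 over all genes. The groups did not overlap for 22 members (68.75%), against 45.4% of all genes. In OGE against control, 4 rose and 10 fell, against 5.14% and 6.33% of all genes (11.5% in either direction), with medians of -0.29 and 0.00. The groups did not overlap for 23 members (71.88%), against 38.2% of all genes. The 3 comparisons share libraries with each other and are not independent. A total of 21 members were called in at least 1 comparison. With control replicate 1 and OGE replicate 3 left out, 10 members fell and 2 rose in OGP against control, 9 rose and 2 fell in OGE against OGP, and 4 rose and 10 fell in OGE against control.

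**Figure D3:**
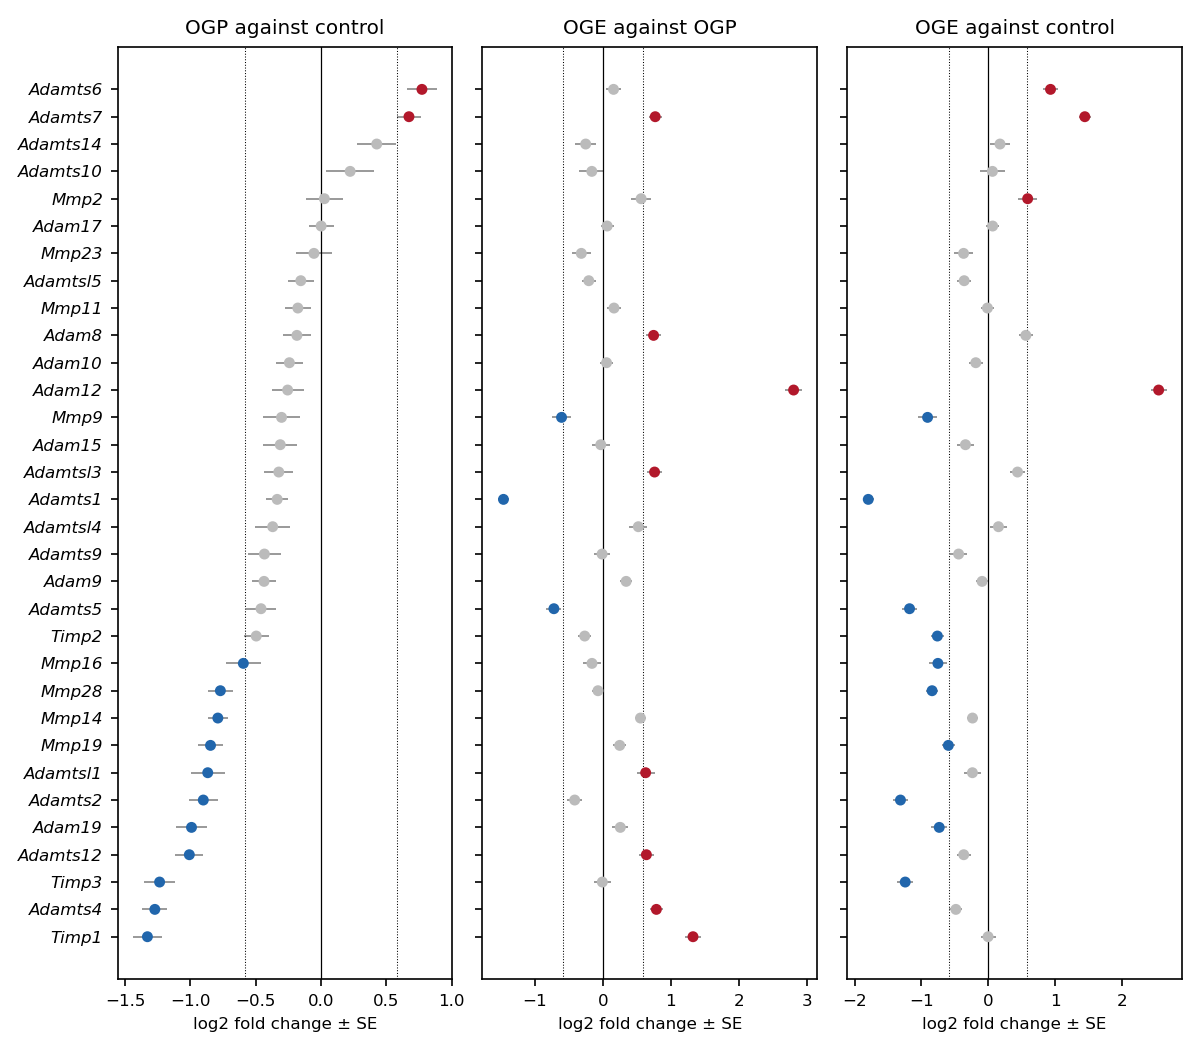
Log2 fold change ± SE of the 32 members tested in the 3 comparisons, on the log2(FPKM + 0.5) scale, with members ordered by OGP against control. Red points rose and blue points fell, gray points did not pass both thresholds, and dotted lines mark a fold of 1.5. Timp1 lies at -1.33, 1.33 and 0.00 from left to right, and Adam12 at -0.26, 2.80 and 2.55.

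Of the 4 TIMPs, 3 were tested, and each had its own course over the groups. Timp1 (ENSMUSG00000001131, chrX:20870166-20874735, mm10) was at 206, 278 and 268 FPKM in control, 93.3, 101 and 102 in OGP, and 252, 247 and 244 in OGE. All OGP libraries lay below all others, and control and OGE overlapped. Timp1 fell in OGP against control (log2 fold change -1.33 ± 0.11 SE, adjusted p = 7.82e-05) and rose in OGE against OGP (1.33 ± 0.11, adjusted p = 6.62e-05). OGE against control differed by 0.00 ± 0.11 (adjusted p = 0.986).

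Timp3, an inhibitor bound to the matrix that also blocks ADAM17, was much lower in level, at 6.20, 5.07 and 5.25 FPKM in control, 2.19, 2.20 and 1.76 in OGP, and 1.99, 2.31 and 1.81 in OGE. Control lay above both other groups, which overlapped. It fell in OGP (-1.24 ± 0.12, adjusted p = 0.000161) and in OGE (-1.24 ± 0.12, adjusted p = 0.000115) against control, and OGE against OGP differed by -0.01 ± 0.12 (adjusted p = 0.975). Timp3 lies inside Syn3 on the opposite strand and shares 21.3% of its exon bases with it, and strand was not stated for the counting, but the mean level of Syn3 was 0.00674 FPKM.

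Timp2, an inhibitor that also takes part in the activation of pro-MMP-2 by MMP-14, was at 251, 255 and 244 FPKM in control, 189, 168 and 175 in OGP, and 143, 166 and 134 in OGE. The 3 groups did not overlap and descended from control to OGP to OGE. Only OGE against control passed both thresholds (-0.76 ± 0.09, adjusted p = 0.000477). In OGP against control the log2 fold change of -0.50 ± 0.09 passed the adjusted p (0.00461) but not the fold, and OGE against OGP was -0.27 ± 0.09 (adjusted p = 0.0770). Timp4 had no read in any library, and 3 reads, taken as an approximate upper limit for a count of 0, would be at most 0.0328 FPKM. Such limits cover counting error only.

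**Figure D4:**
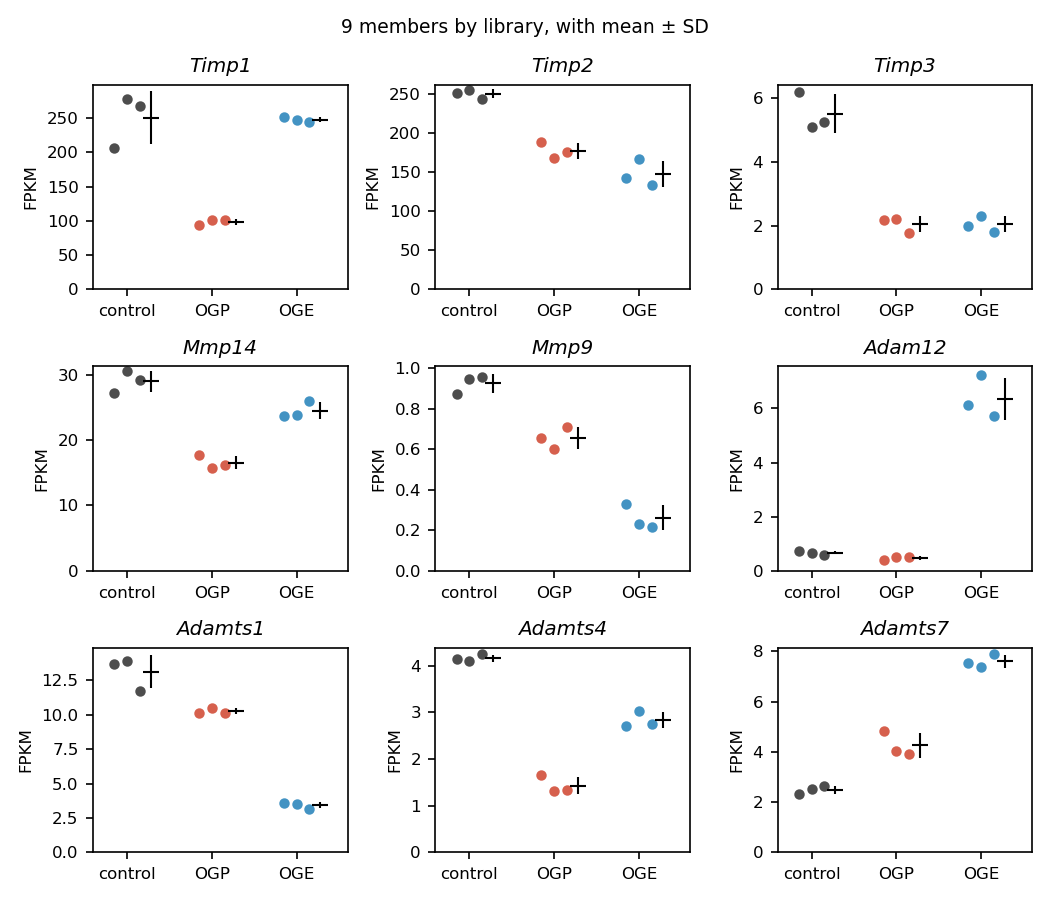
FPKM of 9 members in each library (points) with the mean ± SD of the 3 libraries of each group (black), each panel on its own linear axis from 0. Timp1 and Adamts4 are lowest in OGP, Timp3 is low in both OGP and OGE, Adamts1 and Mmp9 are lowest in OGE, Adam12 is high in OGE alone, and Adamts7 is highest in OGE.

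Among 2 gelatinases, which cut denatured collagen and basement membrane collagen, Mmp2 and Mmp9 were both low in these cells and moved in opposite directions in OGE against control. Mmp9 was at 0.874, 0.949 and 0.958 FPKM in control, 0.657, 0.604 and 0.712 in OGP, and 0.333, 0.234 and 0.219 in OGE. The 3 groups did not overlap. Mmp9 fell in OGE against control (-0.91 ± 0.14, adjusted p = 0.00172) and against OGP (-0.61 ± 0.14, adjusted p = 0.0163), and both calls held with no filter on low values. Its mean of 0.615 FPKM was just above the level of the test, which it passed through control and OGP, and at a minimum of 1 FPKM it was not tested. The call against OGP was lost without OGP replicate 3, without OGE replicate 2 or without OGE replicate 3.

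Mmp2 was at 3.04, 2.59 and 3.06 FPKM in control, 3.33, 3.17 and 2.42 in OGP, and 4.91, 5.22 and 3.79 in OGE. OGE lay above both other groups, which overlapped. It rose in OGE against control (0.59 ± 0.14, adjusted p = 0.0156), a call at the edge of the fold threshold that was lost without control replicate 2, OGE replicate 1 or OGE replicate 2. OGE against OGP was 0.56 ± 0.14 (adjusted p = 0.0230), under the fold threshold.

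Of 6 membrane-type MMPs, 2 were tested. Mmp14, which encodes a collagenase of the cell surface and the main activator of pro-MMP-2, was the MMP with the highest mean level. It was at 27.3, 30.5 and 29.1 FPKM in control, 17.7, 15.8 and 16.1 in OGP, and 23.7, 23.8 and 26.0 in OGE. The groups did not overlap, with OGP lowest. Mmp14 fell in OGP against control (-0.79 ± 0.08, adjusted p = 0.000171), and in OGE against OGP its 0.55 ± 0.08 passed the adjusted p (0.00141) but not the fold. Mmp16, another membrane-type MMP, fell in OGP (-0.60 ± 0.13, adjusted p = 0.00943) and OGE (-0.75 ± 0.13, adjusted p = 0.00330) against control, with a mean of 3.07 ± 0.399 FPKM in control, 1.86 ± 0.262 in OGP and 1.62 ± 0.210 in OGE (SD, n = 3). The call in OGP was lost without control replicate 1 or OGP replicate 3.

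The secreted Mmp19 and Mmp28 fell in both OGP and OGE against control. Mmp19 was at 12.6 ± 0.914 FPKM in control, 6.76 ± 0.103 in OGP and 8.16 ± 0.901 in OGE (SD, n = 3), with log2 fold changes of -0.85 ± 0.09 (adjusted p = 0.000272) and -0.60 ± 0.09 (adjusted p = 0.00166) against control. The second call was lost without control replicate 3 or OGE replicate 1. Mmp28 was at 5.86 ± 0.399, 3.23 ± 0.345 and 3.04 ± 0.116 FPKM, with -0.77 ± 0.09 (adjusted p = 0.000495) and -0.84 ± 0.09 (adjusted p = 0.000251). Exons of Mmp19 overlap Tmem198b on the opposite strand over 22.3% of their bases (mean 6.62 FPKM), and those of Mmp28 overlap 1700020L24Rik over 466 of 3874 bases (2.64 FPKM), so reads of these pairs may be shared. Mmp11, a stromelysin by name, was at 13.2 ± 1.67, 11.6 ± 0.359 and 13.0 ± 0.722 FPKM and was not called, nor was Mmp23.

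The 9 MMP genes of the cluster on chromosome 9 (chr9:7272514-7699585, mm10) were all too low to be tested, with 0 to 42 reads each over the 9 libraries together. The cluster holds the collagenases, stromelysins and matrilysin that are the classic cytokine-induced MMPs. Mmp13, a collagenase, had the most, with 4, 0 and 2 reads in control, 3, 9 and 8 in OGP and 9, 4 and 3 in OGE. Mmp8, the collagenase of neutrophils, had 4, 2 and 3 reads in control, 1, 1 and 2 in OGP and 0 in each OGE library, where 3 reads would be at most 0.0797 FPKM. Mmp3 had 1 read in all, and Mmp1b and Mmp20 had none.

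The promoters of these genes are shown because the cluster shares a sequence feature with few tested members. RefSeq start sites (GRCm38.p6) gave windows of 300 bases, 250 before and 50 after the start, for 52 members, 57 windows in all. The letters TGAGTCA or their reverse complement TGACTCA, a binding site of AP-1 (Fos and Jun dimers), stood in 9 of the 57 windows (15.8%), against 5.2% of the 32851 windows of all genes. Of the 9 cluster genes 6 had them, each within 100 bases before the start, and in the 23 windows of tested members 1 did, in Adam19. Genes of the cluster arose by duplication and are not independent of each other. A match is a description of letters, not of binding. The 120 bases from position -110 to 10 of each of the 6 promoters follow, with capitals for the AP-1 letters, which start at -35 in Mmp13, -44 in Mmp12, -93 in Mmp1b, -46 in Mmp3 and -63 in both Mmp10 and Mmp7.
Mmp13, chr9:7272404-7272523, plus strand: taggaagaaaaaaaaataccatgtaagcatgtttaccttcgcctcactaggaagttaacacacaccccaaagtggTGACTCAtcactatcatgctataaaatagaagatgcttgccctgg
Mmp12, chr9:7347264-7347383, plus strand: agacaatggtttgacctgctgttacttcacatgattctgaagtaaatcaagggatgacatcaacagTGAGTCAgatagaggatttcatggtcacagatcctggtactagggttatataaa
Mmp1b, chr9:7388017-7388136, minus strand: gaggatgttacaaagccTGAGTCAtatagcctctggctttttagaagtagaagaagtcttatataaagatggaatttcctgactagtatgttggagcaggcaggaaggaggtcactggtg
Mmp3, chr9:7445712-7445831, plus strand: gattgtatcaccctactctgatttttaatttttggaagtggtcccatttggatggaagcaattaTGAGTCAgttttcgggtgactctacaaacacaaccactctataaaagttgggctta
Mmp10, chr9:7502232-7502351, plus strand: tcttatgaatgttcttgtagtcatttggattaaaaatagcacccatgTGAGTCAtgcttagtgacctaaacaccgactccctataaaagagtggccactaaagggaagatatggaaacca
Mmp7, chr9:7691980-7692099, plus strand: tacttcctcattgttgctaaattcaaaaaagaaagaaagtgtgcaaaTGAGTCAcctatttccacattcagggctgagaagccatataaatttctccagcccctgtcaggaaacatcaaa
Fos, a subunit of AP-1, was at a mean of 62.3 FPKM in control, 66.9 in OGP and 1.11 in OGE. It fell in OGE against OGP (-5.39 ± 0.18, adjusted p = 8.57e-07). Among the other AP-1 subunits in that comparison, Fosb and Jun also fell, Fosl2 rose, and Fosl1, Junb and Jund were not called. The cluster genes were near 0 reads in all 3 groups, and a relation of Fos to them was not tested.

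For comparison, the window of Adam19 from -150 to -31 is shown with its AP-1 letters at -131 in capitals, since it is the tested member that held them.
Adam19, chr11:46055834-46055953, plus strand: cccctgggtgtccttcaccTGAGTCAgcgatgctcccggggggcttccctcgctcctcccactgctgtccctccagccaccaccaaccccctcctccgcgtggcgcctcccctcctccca
The Timp1 promoter from -110 to 10 is shown because Timp1 had the highest mean level of the family and was called in both directions. Capitals mark ACGTG, the core of a hypoxia response element, at -82. On either strand this core stood in 21.1% of member windows and in 19.6% of all windows, and TTCNNNGAA, a STAT site, in 7.02% and 8.3%.
Timp1, chrX:20870056-20870175, plus strand: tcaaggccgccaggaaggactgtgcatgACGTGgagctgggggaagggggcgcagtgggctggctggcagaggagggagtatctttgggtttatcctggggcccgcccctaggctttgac

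Of 9 ADAMs that shed membrane proteins in somatic tissues, 7 were tested. The main sheddases were expressed in all groups and were not called. Adam10, the alpha-secretase of APP and the sheddase of Notch, was at 31.3 ± 2.88 FPKM in control, 26.3 ± 0.859 in OGP and 27.5 ± 3.37 in OGE (SD, n = 3), and its log2 fold changes were -0.24, 0.06 and -0.19 (SE 0.10 each, lowest adjusted p = 0.104). Adam17, which releases TNF, was at 11.2 ± 1.41, 11.2 ± 0.369 and 11.7 ± 0.768 FPKM, with 0.00, 0.06 and 0.06 (SE 0.10 each, lowest adjusted p = 0.668). Adam9 was at 51.4 ± 3.47, 37.9 ± 3.24 and 48.1 ± 3.73 FPKM and passed the adjusted p but not the fold in OGP against control (-0.44 ± 0.09, adjusted p = 0.00762) and in OGE against OGP (0.34 ± 0.09, adjusted p = 0.0295). Adam15 was at 23.3 ± 3.82, 18.6 ± 2.07 and 18.2 ± 1.29 FPKM and was not called.

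Adam12 had the largest change among the 32 members tested. Adam12 (ENSMUSG00000054555, chr7:133883199-134232146, mm10) encodes a metalloprotease-disintegrin of muscle, placenta and mesenchymal cells that is known to shed heparin-binding EGF. It was at 0.726, 0.675 and 0.605 FPKM in control, 0.401, 0.531 and 0.506 in OGP, and 6.13, 7.23 and 5.71 in OGE. All OGE libraries lay far above the other 6. Adam12 rose in OGE against OGP (2.80 ± 0.12, adjusted p = 2.55e-06) and against control (2.55 ± 0.12, adjusted p = 2.70e-06), and OGP against control was -0.26 ± 0.12 (adjusted p = 0.144).

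Adam8, a protease best known from leukocytes, also rose in OGE against OGP (0.75 ± 0.11, adjusted p = 0.00163), with 2.26, 2.71 and 2.42 FPKM in control, 2.33, 1.82 and 2.19 in OGP, and 3.60, 3.93 and 4.07 in OGE. OGE lay above both other groups, and against control its 0.56 ± 0.11 stayed under the fold threshold. Adam19 went the other way, at 1.73, 1.72 and 1.89 FPKM in control, 0.760, 0.575 and 0.613 in OGP, and 0.906, 0.847 and 0.860 in OGE. It fell in OGP (-0.99 ± 0.12, adjusted p = 0.000459) and in OGE (-0.73 ± 0.12, adjusted p = 0.00216) against control. The 24 other ADAMs, among them those of the germ line, which serve sperm and egg, and Adam11, Adam22 and Adam23 of the nervous system, which lack a working zinc site, had none tested.

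The ADAMTS proteoglycanases cut aggrecan and versican, and 4 of 7 were tested. Adamts1 and Adamts5 are neighbors on chromosome 16 (chr16:85793827-85803113 and chr16:85856173-85901828, mm10), 53059 bases apart with no protein-coding gene between them, and both were lowest in OGE. Adamts1 was at 13.7, 13.9 and 11.7 FPKM in control, 10.1, 10.5 and 10.2 in OGP, and 3.56, 3.53 and 3.16 in OGE. Adamts5 was at 5.88, 4.61 and 5.14 in control, 3.86, 3.81 and 3.26 in OGP, and 1.85, 2.23 and 1.97 in OGE. For both genes, the 3 groups did not overlap. Adamts1 fell in OGE against OGP (-1.46 ± 0.09, adjusted p = 9.70e-06) and against control (-1.80 ± 0.09, adjusted p = 2.70e-06), and Adamts5 by -0.72 ± 0.11 (adjusted p = 0.00243) and -1.18 ± 0.11 (adjusted p = 0.000101).

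Adamts4, the other main aggrecanase, followed another course. It was at 4.13, 4.09 and 4.24 FPKM in control, 1.65, 1.31 and 1.34 in OGP, and 2.70, 3.02 and 2.76 in OGE. The groups did not overlap, with OGP lowest and OGE between. Adamts4 fell in OGP against control (-1.27 ± 0.10, adjusted p = 4.74e-05) and rose in OGE against OGP (0.79 ± 0.10, adjusted p = 0.000613). In OGE against control its -0.48 ± 0.10 passed the adjusted p (0.00637) but not the fold. Adamts9 was at 1.08 ± 0.0313, 0.669 ± 0.0721 and 0.659 ± 0.0346 FPKM in control, OGP and OGE, and its -0.43 ± 0.12 and -0.44 ± 0.12 against control did not reach the fold threshold on the log2(FPKM + 0.5) scale. With a pseudocount of 0.1 FPKM both passed it, and so they did in limma voom on recovered reads.

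Of 3 procollagen N-proteinases, which trim the amino end of fibrillar procollagens, Adamts2 was at 5.34, 6.77 and 6.63 FPKM in control, 3.11, 3.24 and 2.94 in OGP, and 1.95, 2.28 and 2.39 in OGE. The groups did not overlap and descended from control to OGP to OGE. It fell in OGP (-0.90 ± 0.11, adjusted p = 0.000497) and in OGE (-1.31 ± 0.11, adjusted p = 4.71e-05) against control. Adamts14 was not called, at 4.38 ± 0.513, 6.10 ± 1.22 and 5.02 ± 0.729 FPKM, and Adamts3 had no read. Col1a1, the substrate with the highest level among the fibrillar collagens and a marker on the mesenchymal list, was at 777 ± 157, 383 ± 34.3 and 369 ± 31.4 FPKM, and it fell against control in OGP (adjusted p = 0.0013) and in OGE (log2 fold change -1.06, adjusted p = 0.000963). In OGP against control Col5a1 fell too (-0.88 ± 0.13), and the -0.51 ± 0.07 of Col1a2 stayed under the fold threshold. Col3a1 instead rose in OGP against control (0.78 ± 0.11, adjusted p = 0.000959) and fell in OGE against OGP (-0.88 ± 0.11). The part of the mesenchymal markers in the changes of the proteases was not tested.

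Adamts7 and Adamts12 form a closely related pair of proteases that cut cartilage oligomeric matrix protein. Adamts7 was at 2.31, 2.51 and 2.64 FPKM in control, 4.85, 4.03 and 3.92 in OGP, and 7.56, 7.38 and 7.88 in OGE. The 3 groups did not overlap and ascended from control to OGP to OGE. It rose in OGP against control (0.67 ± 0.09, adjusted p = 0.00101), in OGE against OGP (0.77 ± 0.09, adjusted p = 0.000596) and in OGE against control (1.44 ± 0.09, adjusted p = 1.09e-05), and it was the member that rose in all 3 comparisons.

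Adamts12 was at 7.17, 5.87 and 6.12 FPKM in control, 2.89, 3.14 and 2.72 in OGP, and 5.02, 5.27 and 4.23 in OGE. OGP lay lowest and OGE between, with no overlap. It fell in OGP against control (-1.01 ± 0.11, adjusted p = 0.000259) and rose in OGE against OGP (0.64 ± 0.11, adjusted p = 0.00367), a call lost without OGE replicate 2. Adamts6, a protease that acts on the microfibril environment, rose in OGP (0.77 ± 0.12, adjusted p = 0.00139) and OGE (0.93 ± 0.12, adjusted p = 0.000475) against control, at 2.05 ± 0.320, 3.84 ± 0.298 and 4.35 ± 0.400 FPKM. Adamts10 was not called.

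The ADAMTS-like proteins have no protease domain and are found in the matrix, and 4 of 5 were tested. Adamtsl3 was at 16.4, 13.3 and 14.6 FPKM in control, 13.6, 10.7 and 11.0 in OGP, and 19.1, 20.0 and 21.2 in OGE. OGE lay above both other groups, and Adamtsl3 rose in OGE against OGP (0.76 ± 0.11, adjusted p = 0.00167). Adamtsl1 was at 1.16 ± 0.00567 FPKM in control, 0.411 ± 0.0857 in OGP and 0.906 ± 0.0718 in OGE, and it fell in OGP against control (-0.87 ± 0.13, adjusted p = 0.00151) and rose in OGE against OGP (0.63 ± 0.13, adjusted p = 0.00996). The rise was lost without OGP replicate 3. Adamtsl4, the ADAMTS-like protein with the highest mean level, was at 38.0 ± 5.41, 29.2 ± 3.84 and 42.1 ± 4.18 FPKM and did not pass both thresholds, and Adamtsl5 was not called either.

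A further 31 members were below the level of the test but had at least 1 read, 14 of them under 10 reads in all. Adamts16, a protease known from kidney and gonads, had 14, 16 and 13 reads in control, 6, 3 and 1 in OGP, and 30, 38 and 27 in OGE. The 3 groups did not overlap, with OGP lowest. In a fit to the reads recovered from FPKM (limma voom, genes with at least 10 reads over the 9 libraries, chosen after seeing the data), Adamts16 fell in OGP against control (-2.13 ± 0.55, adjusted p = 0.0109) and rose in OGE against OGP (3.31 ± 0.52, adjusted p = 0.000446). Adam33, a protease linked to smooth muscle and airway, had 0 reads in each control library, 8, 5 and 6 in OGP, and 0, 9 and 5 in OGE. Adamtsl2, also at 0 in control, had 5, 8 and 2 reads in OGP and 2, 4 and 1 in OGE. Adam5 had 0, 1 and 5 reads in control, 9, 12 and 18 in OGP, and 7, 3 and 3 in OGE. These values rest on few reads.

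Genes that regulate these proteases or are cut by them were taken as lists outside the family. The counts of each list are to be read beside the share called over all genes tested. That share was 12.1% in OGP against control, 8.12% in OGE against OGP and 11.5% in OGE against control. Of 20 regulators 14 were tested, and 1 fell in OGP against control, 3 rose in OGE against OGP and none was called in OGE against control. Sh3pxd2b, an adaptor of invadopodia, fell in OGP against control (-0.97 ± 0.10, adjusted p = 0.000261) and rose in OGE against OGP (1.02 ± 0.10, adjusted p = 0.000208), at 14.1, 7.01 and 14.7 FPKM on average. Furin, the convertase that activates MMP-14 and the ADAMs, rose in OGE against OGP (0.86 ± 0.15, adjusted p = 0.00362), as did Lrp1, the receptor that clears MMPs and TIMPs (0.63 ± 0.17, adjusted p = 0.0307). The call of Lrp1 was lost with a replicate block (adjusted p = 0.0640) and without OGP replicate 2 or 3 or any 1 of the OGE libraries. Their median log2 fold changes were -0.22, 0.05 and -0.07 in the 3 comparisons.

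In the plasminogen system, which activates several MMPs, 7 of 11 genes were tested, and 2 rose and 1 fell in OGP against control, 3 fell in OGE against OGP and 1 rose in OGE against control. Plau, the urokinase, fell in OGE against OGP (-0.74 ± 0.08, adjusted p = 0.000277), and Plaur, its receptor, rose in OGE against control (1.09 ± 0.12, adjusted p = 0.00022). The plasminogen receptors Plgrkt and S100a10 rose in OGP against control (0.63 ± 0.10 and 0.68 ± 0.12) and fell in OGE against OGP (-0.78 ± 0.10 and -0.85 ± 0.12). Medians were 0.17, -0.26 and -0.12.

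Of 16 other metalloproteases and their enhancers, 8 were tested, and 2 rose and 2 fell in OGP against control, 2 rose and 1 fell in OGE against OGP, and 2 rose and 1 fell in OGE against control. Mme, which encodes neprilysin, rose in OGP against control (1.54 ± 0.20, adjusted p = 0.000769) and fell in OGE against OGP (-2.01 ± 0.20, adjusted p = 0.000192). Bmp1, the procollagen C-proteinase, rose in OGE against OGP (0.79 ± 0.10, adjusted p = 0.000626), as did its enhancer-like partner Pcolce2 (1.01 ± 0.08, adjusted p = 4.96e-05), which fell in OGP against control (-0.84 ± 0.08). Ece1, the endothelin-converting enzyme, fell in OGP (-0.64 ± 0.09) and OGE (-0.67 ± 0.09) against control, and Bmp1 (0.85 ± 0.10) and its relative Tll1 (0.72 ± 0.14) rose in OGE against control. Medians were 0.07, 0.07 and 0.16.

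Of 41 membrane proteins known to be shed by ADAMs, 29 were tested, and 2 rose and 8 fell in OGP against control, 8 rose and 4 fell in OGE against OGP, and 5 rose and 5 fell in OGE against control, with medians of -0.25, 0.14 and -0.10. Vcam1, an adhesion molecule, had the smallest p of the list and went against most of it, as it rose in OGP against control (1.71 ± 0.12, adjusted p = 3.13e-05) and fell in OGE against OGP (-2.32 ± 0.12, adjusted p = 5.45e-06). Sdc1, a heparan sulfate proteoglycan, fell in OGP against control (-1.31 ± 0.10, adjusted p = 4.74e-05), as did Notch3 (-1.26 ± 0.14, adjusted p = 0.000272). Areg, an EGF receptor ligand released by ADAM17, rose in OGE against OGP (1.66 ± 0.17, adjusted p = 0.000181), as did Ncam1 (0.90 ± 0.09, adjusted p = 0.000213). In OGE against control, Notch2 (0.92 ± 0.09) and Alcam (1.30 ± 0.15) rose and Cx3cl1 fell (-0.96 ± 0.08).

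Of 30 matrix substrates 21 were tested, and 2 rose and 10 fell in OGP against control, 4 rose and 3 fell in OGE against OGP, and 2 rose and 7 fell in OGE against control, with medians of -0.51, 0.20 and -0.47. Lamc1 (-1.10 ± 0.10), Nid1 (-0.95 ± 0.09) and Fn1 (-1.15 ± 0.13), genes of the basement membrane and of fibronectin, fell in OGP against control. Vcan, the versican cut by ADAMTS1, ADAMTS4 and ADAMTS5, rose in OGE against OGP (1.65 ± 0.16, adjusted p = 0.000148), whereas Thbs1 (-1.67 ± 0.10) and Nid2 (-1.68 ± 0.13) fell. The mean level of Vcan was 20.3, 9.05 and 29.4 FPKM in control, OGP and OGE. In OGE against control, Sparc (-1.27 ± 0.09) and Nid2 (-2.03 ± 0.13) fell and Lamb1 rose (1.20 ± 0.11). Col1a1 and Col1a2 stand both on this list and among the mesenchymal markers, and Col1a1 alone makes up most of the lower marker sum in OGP and OGE.

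Of 16 AP-1 and ETS factors, which bind promoters of MMP genes, 15 were tested, and 2 rose and 3 fell in OGP against control, 4 rose and 3 fell in OGE against OGP, and 3 rose and 4 fell in OGE against control, with medians of -0.10, 0.28 and 0.14. Etv5 rose in OGP (1.93 ± 0.10, adjusted p = 6.31e-06) and OGE (1.86 ± 0.10, adjusted p = 5.09e-06) against control. Ets2 fell in OGP against control (-0.59 ± 0.08, adjusted p = 0.000744), a call lost without control replicate 1 or OGP replicate 2, and rose in OGE against OGP (1.05 ± 0.08, adjusted p = 3.10e-05). Fosl2 fell in OGP against control (-0.78 ± 0.09, adjusted p = 0.000375) and rose in OGE against OGP (0.69 ± 0.09, adjusted p = 0.00093). Fosb fell in OGE against OGP (-3.62 ± 0.24, adjusted p = 1.66e-05) and against control (-3.32 ± 0.24), where Fos fell too (-5.25 ± 0.18). Jun also fell in OGE against OGP (-1.53 ± 0.15, adjusted p = 0.000176). In that comparison Fosl1 (0.55 ± 0.14) stayed under the fold threshold, and Junb and Jund were not called.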

How the data were processed

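RNA-seq was read from 9 libraries of HT22 cells. The deposited FPKM were made by the authors from reads aligned with HISAT2 2.0.5 to mm10 and counted per gene with featureCounts, with a tool the sources do not name. The labels and the paper differ on the RNA extraction kit, and neither states strand. Multiplied by gene length, 100% of the values were whole multiples (within 0.1) of the value of 1 read, which gave the reads per library.

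Genes that averaged 0.5 FPKM or more were fitted in a single model of 3 groups on log2(FPKM + 0.5), by limma (version 3.58.1, R 4.3.3) using eBayes with a variance trend. Fold changes on this scale understate changes of low genes. P-values were two-sided, with Benjamini-Hochberg adjustment across every gene in the fit. A gene rose or fell where its adjusted p was 0.05 or less and its fold 1.5 or more. The fit was tested on simulated data.

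Members, lists and markers were chosen with earlier results of these data known. Named members were those called in any comparison, the 10 with the highest mean FPKM, the TIMPs, and Mmp2, Mmp9, Mmp14, Adam10 and Adam17, and, from each list and comparison, up to 3 called genes with the smallest p. Mmp8, Mmp13, Adamts16 and other low members were named after their values were seen, as were Col1a1 and the other fibrillar collagens. So were the AP-1 subunits Jun, Junb, Jund and Fosl1, and the rise of Fosl2. Some items are not reported here. Mmp1a is annotated as a pseudogene and is not a member. Alternatives were other pseudocounts, filters, fold thresholds, scalings, fits and sets of libraries.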

Additional observations from a re-analysis of the deposited data

How the results depend on the processing

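At a fold of at least 2, 0 members rose and 4 fell in OGP against control, 2 rose and 1 fell in OGE against OGP, and 2 rose and 4 fell in OGE against control, against 2 and 11, 8 and 3, and 4 and 10 at 1.5. Over all genes tested, 1605, 1075 and 1519 were called in the 3 comparisons, 436, 393 and 530 at a fold of at least 2, and 3941, 2750 and 3287 with no fold threshold. Limma voom on recovered reads was also run with members of at least 10 reads included, chosen after seeing the data. Members that rose then numbered 5 (OGP against control) and 7 (OGE against control), and 13 fell in OGP against control. In either direction 18, 13 and 19 members were called in the 3 comparisons. That fit held 19186 genes rather than 13245, and in OGP against control the calls over all genes grew in number too. The larger member counts are to be read beside that growth. Leaving out 1 library at a time gave 2 members higher and 10 to 11 lower in OGP against control, 7 to 11 and 2 to 3 in OGE against OGP, 3 to 4 and 9 to 10 in OGE against control, and 1345 to 1915, 890 to 1183 and 1341 to 2021 calls over all genes. With a replicate block the member counts were 2 and 11, 8 and 3, and 4 and 10, and Lrp1 of the regulators lost its call. Whether libraries of the same number were paired is not known. The r of their deviations was over 0.1 in 2 of 9 pairs (-0.177 to 0.319). For pairs of different number r was -0.346 to 0.264. With 3 libraries per group these values cannot decide on pairing. At a pseudocount of 1 FPKM the calls of Mmp16 (OGP against control), of Adamts12, Adamtsl1 and Mmp9 in OGE against OGP, and of Adam19, Mmp19 and Mmp2 in OGE against control were lost, quantile normalization lost Mmp9, Mmp19 and Mmp2 in the same comparisons, and median-of-ratios scaling lost Mmp2. Calls were also gained: Timp2 (OGP against control) and Adamtsl4 (OGE against OGP) by quantile normalization, and Adamts9 (both groups against control), Mmp2 (OGE against OGP) and Adam8 (OGE against control) by a pseudocount of 0.1 FPKM and by voom. A minimum of 1 FPKM left out Adamtsl1 and Mmp9. Called under all 24 alternatives run were Timp1, Timp3, Adamts12 and Adamts4 (OGP against control), Timp1, Adamts1 and Adam12 (OGE against OGP), and Adamts1, Adamts2, Adamts5, Adamts7, Timp3 and Adam12 (OGE against control). Values near 0 changed sign with no call. Quantile normalization gave 0.0038 for Timp3 and 0.0316 for Adamts9 in OGE against OGP, and 0.0226 for Timp1, 0.0201 for Mmp11 and -0.0325 for Adamts10 in OGE against control. Leaving out control replicate 1 and OGE replicate 3 gave 0.0583 for Timp3 in OGE against OGP, and -0.0495 for Adamtsl4, -0.0023 for Adamts14 and -0.1991 for Adamts10 in OGE against control. For Adam17 in OGP against control, median-of-ratios scaling gave -0.0056 and voom with low members -0.0052, and voom gave 0.0069 for Timp1 in OGE against control. Without 1 library, log2 fold changes in OGP against control were -0.0775 to 0.0923 for Adam17, -0.1965 to 0.0356 for Mmp23 and -0.0497 to 0.1443 for Mmp2, in OGE against OGP -0.0296 to 0.145 for Adam10, -0.1095 to 0.0476 for Adam15, -0.092 to 0.0583 for Timp3 and -0.0475 to 0.0384 for Adamts9, and in OGE against control -0.1371 to 0.0764 for Timp1, -0.1182 to 0.0446 for Mmp11, -0.0131 to 0.1567 for Adam17 and -0.1029 to 0.2074 for Adamts10. The cause of these changes was not tested. The 51 members not tested lay under the minimum level, and had 0 to 250 reads each over the 9 libraries.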
